A study of Saccharomyces cerevisiae with 24 samples.

Results

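Deleting GAL83 in budding yeast that already lacked SIP1 lowered transcripts of gluconeogenesis, the glyoxylate cycle, the carnitine shuttle and peroxisomal β-oxidation. It raised many transcripts of iron uptake and ergosterol synthesis, and some of cell wall mannoproteins. The comparison sets 3 arrays of a strain deleted for SIP1 and GAL83 (sip1gal83) against 3 arrays of a strain deleted for SIP1 alone (sip1). These 6 of the 24 arrays of the series were chosen by the genotype in the labels. The sip1gal83 strain keeps SIP2 as its only β-subunit gene, and the sip1 strain keeps SIP2 and GAL83. The series holds 8 strains with 3 arrays each, labelled as biological replicates. The other strains used here are the reference, gal83, sip2, sip2gal83, sip1sip2 and sip1sip2gal83. All 8 strains were grown under the same conditions, aerobically and glucose-limited in 1 L bioreactors at 30 °C and pH 5.0, with 10 g/L glucose in the feed and a dilution rate of 0.1 per h. Cells were sampled at steady state, and total RNA was hybridised to Affymetrix yeast arrays. The labels describe each genotype only by its deleted genes, so parent strain, mating type and number of independent clones are not given in the sources used here.

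Snf1 is the yeast AMP-activated protein kinase, and cells need it to use carbon sources other than glucose. Its active form holds the catalytic subunit Snf1, the γ-subunit Snf4 and 1 of 3 alternative β-subunits, Sip1, Sip2 or Gal83, which hold the complex together and affect where it goes. Gal83 directs the kinase to the nucleus when glucose is short, Sip1 can direct it to the vacuole, and Sip2 is mainly cytoplasmic. In the nucleus Snf1 acts on the repressor Mig1 and on the activators Cat8, Sip4 and Adr1, which switch on genes for growth on ethanol, acetate, lactate, glycerol and fatty acids. The comparison asks what the loss of GAL83 changes when SIP1 is already gone.

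The deleted genes were examined first, on the log2 scale of the deposited values, where the lower end lies near 2 and 1 unit is a factor of 2. SIP1 (YDR422C) read 2.04, 2.03 and 2.03 on the sip1 arrays and 2.03 on each sip1gal83 array, against a mean of 10.93 in the reference. GAL83 (YER027C) read 10.77, 10.68 and 10.71 on the sip1 arrays, and 2.07, 9.72 and 2.07 on the sip1gal83 arrays. The array labelled sip1gal83 replicate 2 therefore carries GAL83 signal, about 1 unit below the sip1 arrays, and goes against its label. It also stood apart for other genes. SIP2 (YGL208W), the remaining β-subunit gene, read 10.49, 10.43 and 10.46 in sip1, and 9.69, 8.48 and 9.71 in sip1gal83. PHO5, a secreted acid phosphatase, read 2.08 on each sip1 array, and 2.07, 4.92 and 2.08 on the sip1gal83 arrays, while its mean was 8.86 in the reference. So the array labelled sip1gal83 replicate 2 was the highest of its strain for GAL83 and PHO5 and the lowest for SIP2. For many carbon genes it lay between the sip1 arrays and the strain's other arrays. List counts, and single values whose call or size turns on it, are therefore also given without it. What put the GAL83 signal there was not tested.

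SIP2 was 1.16 ± 0.67 lower in sip1gal83 (log2 difference ± standard error of the limma fit to all 24 arrays, n = 3 arrays per strain, adjusted p = 0.191). The difference was −0.76 without the array labelled sip1gal83 replicate 2 (adjusted p = 0.483). Leaving out, in addition, the arrays labelled sip1sip2 replicate 3 and sip2gal83 replicate 1, which also stood apart in the series, left it at −0.76 with an adjusted p of 6.21e-07. The call for SIP2 thus turns on which arrays enter the common estimate of the spread. All 3 sip1gal83 arrays lay below all 3 sip1 arrays. In the gal83 strain, which has SIP1, the mean of SIP2 was 9.57, against 10.64 in the reference.

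**Figure D1:**
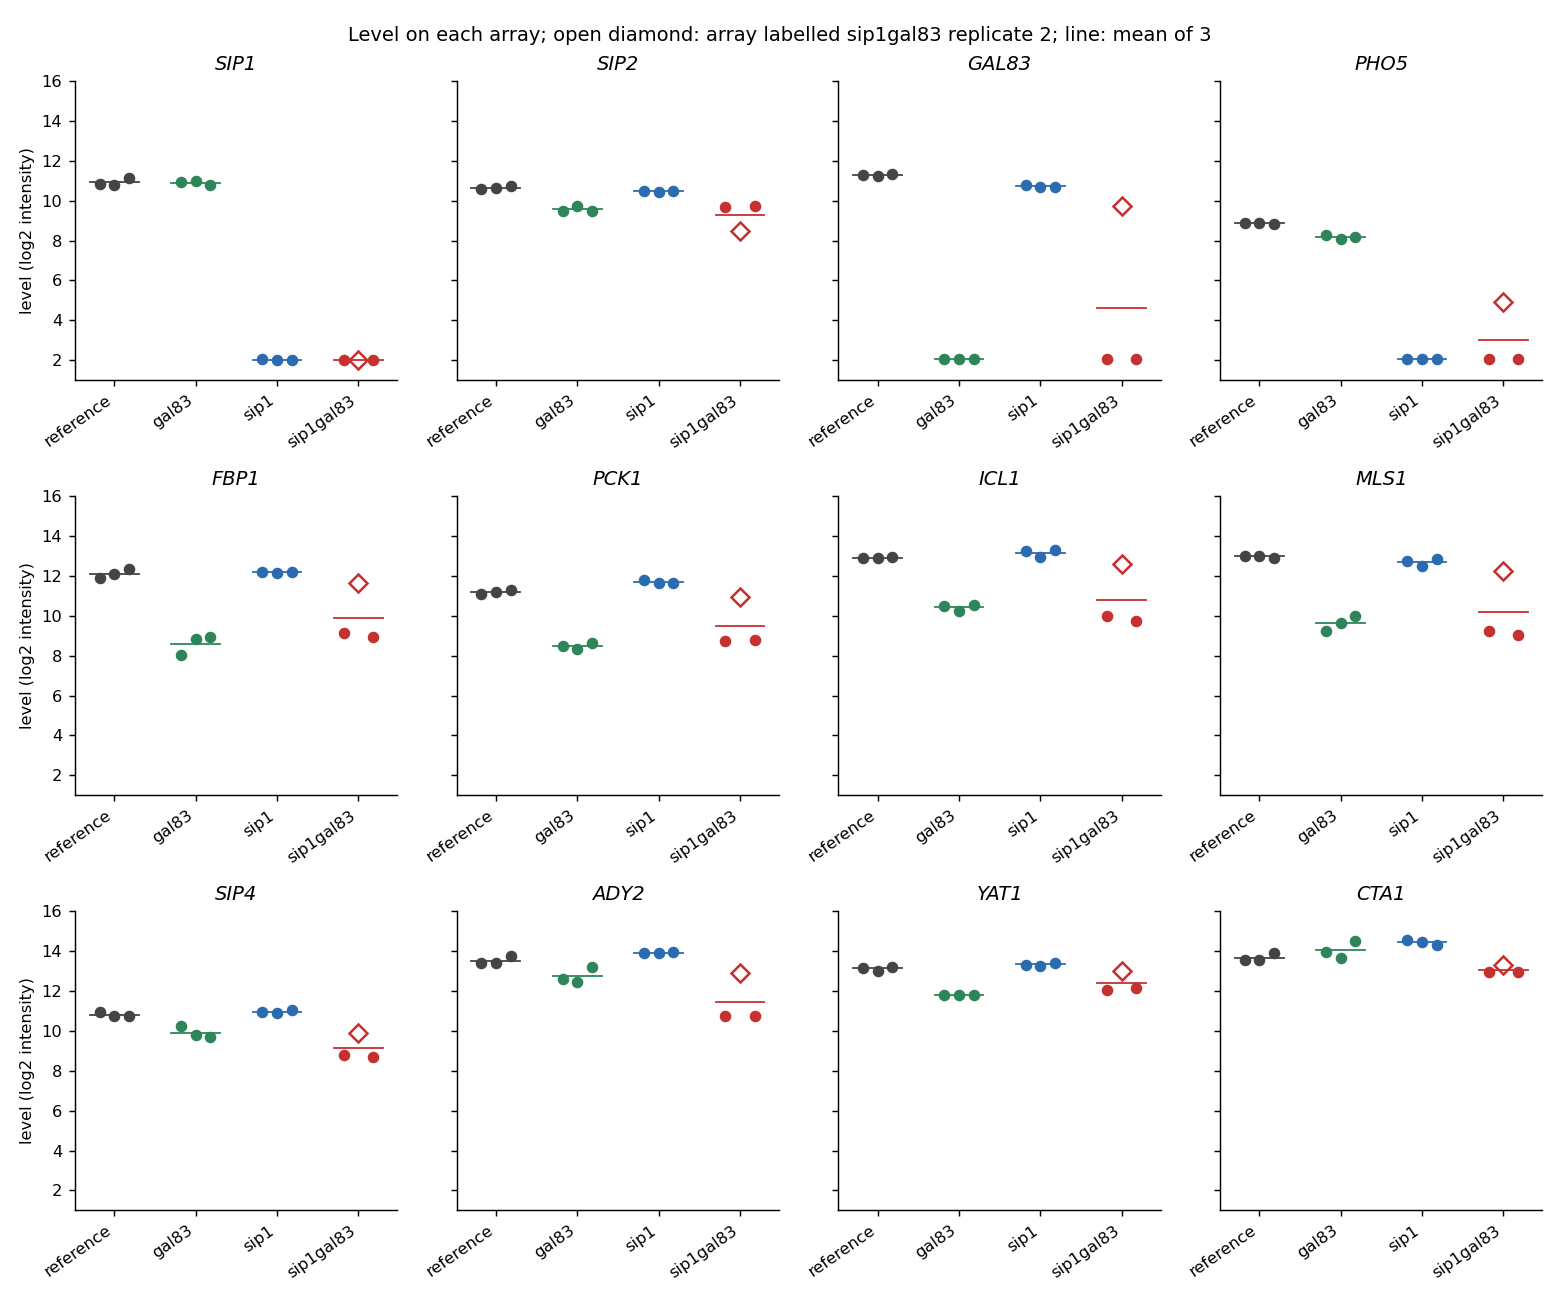
Log2 level on each array (points; line, mean of 3) for the 3 β-subunit genes, PHO5 and 8 genes of carbon use in the reference, gal83, sip1 and sip1gal83 strains. The open diamond is the array labelled sip1gal83 replicate 2, which reads 9.72 for GAL83 and lies above the strain's other arrays for FBP1, PCK1, ICL1, MLS1, SIP4, ADY2, YAT1 and CTA1.

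Of 5449 genes, 1351 (24.8%) rose and 663 (12.2%) fell in sip1gal83 against sip1, together 37% (limma with Benjamini-Hochberg adjustment over all genes, adjusted p under 0.05, two-sided, no minimum fold). The counts were 1145 and 548 without the array labelled sip1gal83 replicate 2. The balance between the directions depends on scaling. The deposited array medians were 10.98, 10.98 and 10.94 in sip1 and 11.07, 11.06 and 11.02 in sip1gal83, and the median difference over all genes was 0.039. Bringing all arrays to one median turned the counts to 999 higher and 1249 lower, and quantile normalization gave 1025 and 936. Most called differences were small: 490 of those higher and 208 of those lower exceeded 0.5, and 139 and 39 exceeded 1. The sip1gal83 arrays all lay above the sip1 arrays in 1765 genes (32.4%) and all below them in 1299 (23.8%).

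The array labelled sip1gal83 replicate 2 was the highest of its strain in 283 of the 663 genes that fell (42.7%), against 32.9% of all genes. Among the 1351 that rose, the array labelled sip1gal83 replicate 3 was the lowest of its strain in 668 (49.4%), against 45.6% of all genes. Markers of the mating types, of haploid cells and of meiotic cells were summed over each list. The summed log2 level of 6 MATa genes ran from 33.93 to 36.94 in sip1 and from 31.93 to 33.24 in sip1gal83, with MFA2 near 2.03 and BAR1 near 4.55 in both strains, and 2 of the 6 fell. For 4 MATα genes the sums were 51.64 to 53.35 and 52.19 to 52.85, and 1 fell. For 10 meiotic genes they were 42.48 to 46.49 and 45.11 to 47.59, where 2 rose and 1 fell. For 6 haploid genes they were 68.08 to 69.38 and 66.59 to 67.46, and 3 fell. The sums of the MATa and haploid lists did not overlap between the strains. Many single genes did not overlap either: the sip1gal83 arrays lay all above in 32.4% and all below in 23.8%. Over all genes 24.8% rose and 12.2% fell. The part of these markers in the results was not tested.

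**Figure D2:**
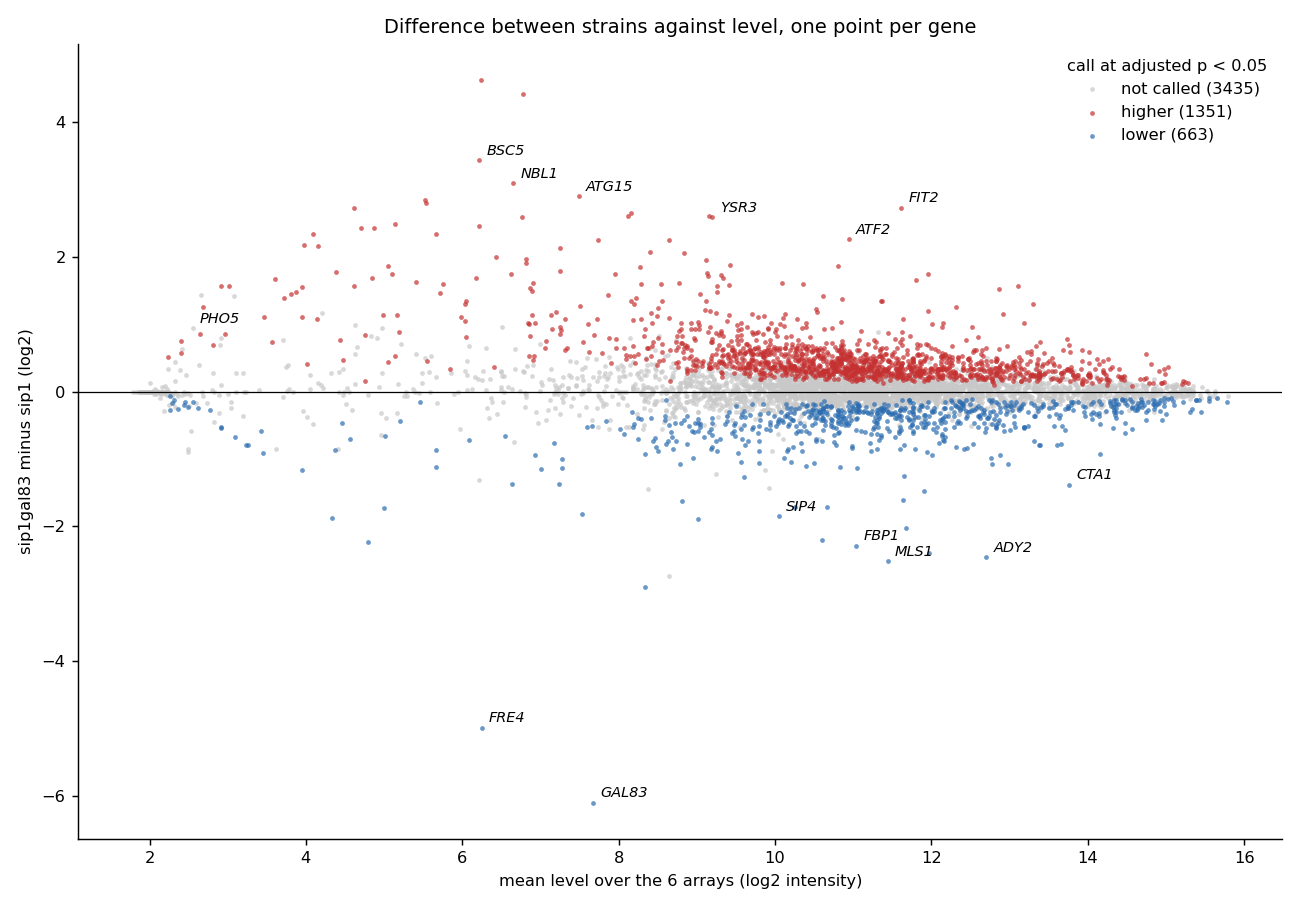
Difference between sip1gal83 and sip1 (log2, vertical) against the mean level of each gene over the 6 arrays (log2, horizontal), 1 point per gene. The 1351 genes called higher are red and the 663 called lower blue, with genes not called in grey. Most called differences are smaller than 1.

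Most genes of gluconeogenesis and the glyoxylate cycle, which let cells make sugars from acetate and ethanol, fell. Of 11 measured, 7 fell and 1 rose, with a median difference of −0.79, against 0.039 over all genes. The same counts were obtained without the array labelled sip1gal83 replicate 2, where the median was −1.03, and after both other scalings. ICL1, the isocitrate lyase that opens the glyoxylate bypass, read 13.26, 12.95 and 13.28 in sip1, and 10.00, 12.58 and 9.76 in sip1gal83. MLS1, the malate synthase that follows it, read 12.76, 12.48 and 12.86, and then 9.24, 12.27 and 9.04. In both genes every sip1gal83 array lay below every sip1 array, with the array labelled replicate 2 close to sip1 and the other 2 more than 2 units lower. ICL1 fell by 2.39 ± 0.45 (adjusted p = 0.000601) and MLS1 fell by 2.52 ± 0.55 (adjusted p = 0.00184).

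The 2 enzymes particular to gluconeogenesis fell too. FBP1, fructose-1,6-bisphosphatase, read 12.19, 12.15 and 12.22 in sip1, and 9.13, 11.65 and 8.92 in sip1gal83. PCK1, phosphoenolpyruvate carboxykinase, read 11.82, 11.65 and 11.64, and then 8.74, 10.95 and 8.78. Again the groups did not overlap and the array labelled replicate 2 lay nearest to sip1. FBP1 fell by 2.29 ± 0.46 (adjusted p = 0.001) and PCK1 fell by 2.21 ± 0.39 (adjusted p = 0.000289). Without that array the differences were −3.16 for FBP1, −2.95 for PCK1, −3.29 for ICL1 and −3.56 for MLS1.

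The enzymes and carriers around them changed less. SFC1, which carries succinate into mitochondria in exchange for fumarate, read 13.55, 13.56 and 13.47 in sip1 and 12.27, 12.96 and 12.09 in sip1gal83, and fell by 1.08 ± 0.15 (adjusted p = 4.44e-05). MDH2, the cytosolic malate dehydrogenase, and IDP2, the cytosolic NADP-dependent isocitrate dehydrogenase, each fell by 0.79. CIT2, the peroxisomal citrate synthase, ran the other way: it read 14.00, 14.00 and 13.90 in sip1 and 14.49, 14.35 and 14.41 in sip1gal83, and rose by 0.45 ± 0.0614 (adjusted p = 3.51e-05). The peroxisomal malate dehydrogenase MDH3 and the pyruvate carboxylases PYC1 and PYC2 differed by −0.01, −0.05 and −0.07 and were not called.

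Among 11 activators of these genes, 2 rose and 1 fell, with a median of 0.04. Both shares lay below those over all genes, 24.8% and 12.2%. SIP4, an activator that binds the carbon source response element, read 10.95, 10.90 and 11.07 in sip1, and 8.77, 9.89 and 8.70 in sip1gal83. The array labelled replicate 2 lay about midway between sip1 and the strain's other arrays. SIP4 fell by 1.85 ± 0.28 (adjusted p = 8.72e-05), and by 2.24 without that array. CAT8, which switches on SIP4 and the gluconeogenic genes, moved the opposite way, from 11.25, 11.15 and 11.19 to 11.50, 11.42 and 11.45, and rose by 0.26 ± 0.0564 (adjusted p = 0.00179). RDS2, another activator of gluconeogenic genes, rose by 0.36, with overlapping arrays and no call after quantile normalization or without sip1gal83 replicate 1. ADR1, which activates genes of ethanol and fatty acid use, differed by −0.12 (adjusted p = 0.609).

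Of 8 glucose repressors, 4 rose and 1 fell, with a median of 0.24. NRG1, a repressor of glucose-repressed genes, read 12.50, 12.15 and 12.53 in sip1 and 11.57, 11.39 and 11.51 in sip1gal83. It fell by 0.90 ± 0.0857 (adjusted p = 1.79e-06), with all 3 arrays of sip1gal83 at one level, the array labelled replicate 2 included. HXK2, the hexokinase that also takes part in glucose repression, rose by 0.33. NRG2, the paralog of NRG1, rose by 0.33 and CYC8, a subunit of the general corepressor, by 0.50. Both of these calls rest on single arrays, since NRG2 lost it without sip1 replicate 1 or 2 or sip1gal83 replicate 1 or 3 and after either other scaling, and CYC8 without the array labelled sip1gal83 replicate 2 (adjusted p = 0.0721) and 3 others. MIG2 rose by 0.51 but lay between 1.98 and 2.76, at the lower end of the scale. MIG1, the repressor that Snf1 phosphorylates, differed by −0.07 (adjusted p = 0.68).

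Of 12 listed genes for the kinase, its activating kinases and its phosphatase, 5 rose and 1 fell, GAL83 itself. After median centring 3 of the 12 rose and 1 fell. REG2, a regulatory subunit of the phosphatase that is not in this list, fell by 1.12. TOS3, 1 of the kinases that activate Snf1, read 8.66, 8.74 and 8.60 in sip1 and 9.74, 9.81 and 9.96 in sip1gal83, and rose by 1.17 ± 0.14 (adjusted p = 8.53e-06). STD1, a glucose-sensing regulator that interacts with Snf1, read 7.04, 7.96 and 8.0, and then 8.83, 8.70 and 8.63, and rose by 1.06 ± 0.21 (adjusted p = 0.000768). MTH1, the paralog of STD1, rose by 0.47 ± 0.0715, from 11.73, 11.57 and 11.71 to 12.21, 12.10 and 12.10. In all 3 genes the groups did not overlap. The γ-subunit gene SNF4 rose by 0.26 (adjusted p = 0.0298), a call lost after median centring and without sip1 replicate 3 or sip1gal83 replicate 1. SNF1 itself differed by −0.04 (adjusted p = 0.704) and REG1, which directs the phosphatase to Snf1, by 0.17 (adjusted p = 0.258).

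All 5 genes of the carnitine shuttle, which moves activated acetyl groups into mitochondria, fell, with a median of −0.78, and −0.93 without the array labelled sip1gal83 replicate 2. YAT1, a carnitine acetyltransferase on the outer mitochondrial membrane, read 13.33, 13.28 and 13.43 in sip1 and 12.07, 12.99 and 12.17 in sip1gal83. CAT2, the mitochondrial and peroxisomal carnitine acetyltransferase, read 14.06, 14.06 and 14.05, and then 13.20, 13.47 and 13.14. Neither gene overlapped between the strains, and the array labelled replicate 2 again lay nearest to sip1, more so for YAT1 than for CAT2. YAT1 fell by 0.94 ± 0.18 (adjusted p = 0.000564) and CAT2 fell by 0.78 ± 0.0958. YAT2, the third acetyltransferase, fell by 0.78, CRC1, the mitochondrial carnitine carrier, by 0.73, and AGP2, the plasma membrane carnitine transporter, fell by 1.04 ± 0.26.

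Of 17 genes for use of ethanol, acetate, lactate and glycerol, 8 fell and the other 9 were not called, with a median of −0.12, and 7 fell without the array labelled sip1gal83 replicate 2. ADY2, an acetate transporter, had the largest difference among them. It read 13.90, 13.93 and 13.96 in sip1, and 10.73, 12.90 and 10.77 in sip1gal83. The sip1 arrays lay within 0.06 of each other, and the array labelled replicate 2 was 1 unit lower while the other 2 were more than 3 units lower. ADY2 fell by 2.46 ± 0.39 (adjusted p = 0.00012), and the difference was −3.18 without that array. CYB2, the L-lactate cytochrome c oxidoreductase, fell by 0.48 ± 0.11 from levels of 14.32 to 14.50. ACS1, an acetyl-CoA synthetase, fell by 0.29 (adjusted p = 0.033), GUT1, glycerol kinase, by 0.36 (adjusted p = 0.0357), and ADH2, the ethanol-oxidising alcohol dehydrogenase, by 0.12 (adjusted p = 0.0325). Leaving out any of several single arrays, among them sip1 replicate 1 and sip1gal83 replicate 3, took these last 3 calls away. JEN1, the lactate transporter, differed by −0.02 (adjusted p = 0.85).

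Fatty acid β-oxidation, which in yeast takes place in peroxisomes, had 10 of 15 genes lower and the other 5 not called, with a median of −0.34. Without the array labelled sip1gal83 replicate 2, 11 were lower. CTA1, the peroxisomal catalase, read 14.55, 14.48 and 14.32 in sip1 and 12.95, 13.31 and 12.95 in sip1gal83. POT1, the 3-ketoacyl-CoA thiolase, read 13.41, 13.21 and 13.34, and then 12.08, 12.62 and 12.03. Here the array labelled replicate 2 lay closer to the strain's other arrays than to sip1. CTA1 fell by 1.38 ± 0.22 (adjusted p = 0.000112) and POT1 fell by 1.08 ± 0.14 (adjusted p = 2.42e-05). The enzymes that handle unsaturated fatty acids fell by 0.85 (ECI1), 0.81 (DCI1) and 0.73 (SPS19). The first enzymes of the cycle changed less: POX1, the acyl-CoA oxidase, fell by 0.23 and FOX2, the multifunctional enzyme, by 0.22, both calls that were lost without sip1 replicate 1. PXA1 and PXA2, the fatty acyl-CoA importer, fell by 0.37 and 0.36, and PEX11, which divides peroxisomes, by 0.34.

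Of 16 measured hexose transporter and sensor genes, 2 rose and 1 fell, with a median of −0.01. Over all genes 24.8% rose and 12.2% fell, so these counts do not set the list apart. After median centring 1 of the 16 rose and 6 fell. HXT4, a glucose transporter, read 11.17, 11.30 and 11.50 in sip1 and 12.08, 12.08 and 12.27 in sip1gal83, and rose by 0.82 ± 0.17 (adjusted p = 0.0012), with no overlap. HXT3 rose by 0.46, with overlapping arrays and no call without the array labelled sip1gal83 replicate 2 (adjusted p = 0.168). SUC2, the invertase whose derepression needs Snf1, differed by 0.30 with overlapping arrays (adjusted p = 0.131). In the sucrose and maltose list 4 of 10 rose and the other 6 were not called. Among those that rose were MAL33, a maltose activator, higher by 0.50, and MAL31, a maltose permease, by 0.49. The probe set of MAL32, a maltase, is shared with near-identical genes. It rose by 0.47. The 7 measured galactose genes were not called, and 4 of them were lower after median centring.

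In central carbon metabolism the balance of calls depended on the scaling. Over all genes 24.8% rose and 12.2% fell with the deposited scaling. The glycolytic, storage carbohydrate and tricarboxylic acid cycle counts do not stand apart from these shares. Among 23 glycolytic genes 3 rose and 3 fell with the deposited scaling, with a median of 0.00, and 2 rose and 8 fell after median centring. PFK27, an enzyme that makes the glycolytic activator fructose-2,6-bisphosphate, rose by 0.74 ± 0.16, while its partner PFK26 fell by 0.35. PGM1, a phosphoglucomutase in the storage carbohydrate list (3 of 21 rose, 2 fell), read 10.54, 10.47 and 10.46 in sip1 and 11.31, 11.21 and 11.20 in sip1gal83, and rose by 0.75 ± 0.0508 (adjusted p = 5.36e-08). In the tricarboxylic acid cycle 3 of 17 rose and 3 fell, against 6 lower and the others not called after median centring. CIT3, a mitochondrial citrate and methylcitrate synthase, was lower by 0.60. In the respiratory chain 12 of 35 fell and 2 rose, with a median of −0.10, and without the array labelled sip1gal83 replicate 2, 8 fell. After median centring 18 fell and 1 rose. COX9, a subunit of cytochrome c oxidase, read 14.20, 14.14 and 14.28 in sip1 and 13.78, 13.86 and 13.97 in sip1gal83, and fell by 0.34 ± 0.0454 (adjusted p = 3.24e-05). CYT1, cytochrome c1, rose by 0.60 ± 0.092, from 12.89, 13.06 and 12.97 to 13.54, 13.53 and 13.66.

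Leaving out the array labelled sip1gal83 replicate 2 gave the same counts for 10 lists: gluconeogenesis, the carnitine shuttle, the activators, the Snf1 complex, storage carbohydrates, the tricarboxylic acid cycle, galactose, ergosterol, fatty acid synthesis and mannoproteins. It left 3 glucose repressors higher and 1 lower, 1 hexose gene each way, 3 sucrose and maltose genes higher, and 2 glycolytic genes higher and 3 lower.

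**Figure D3:**
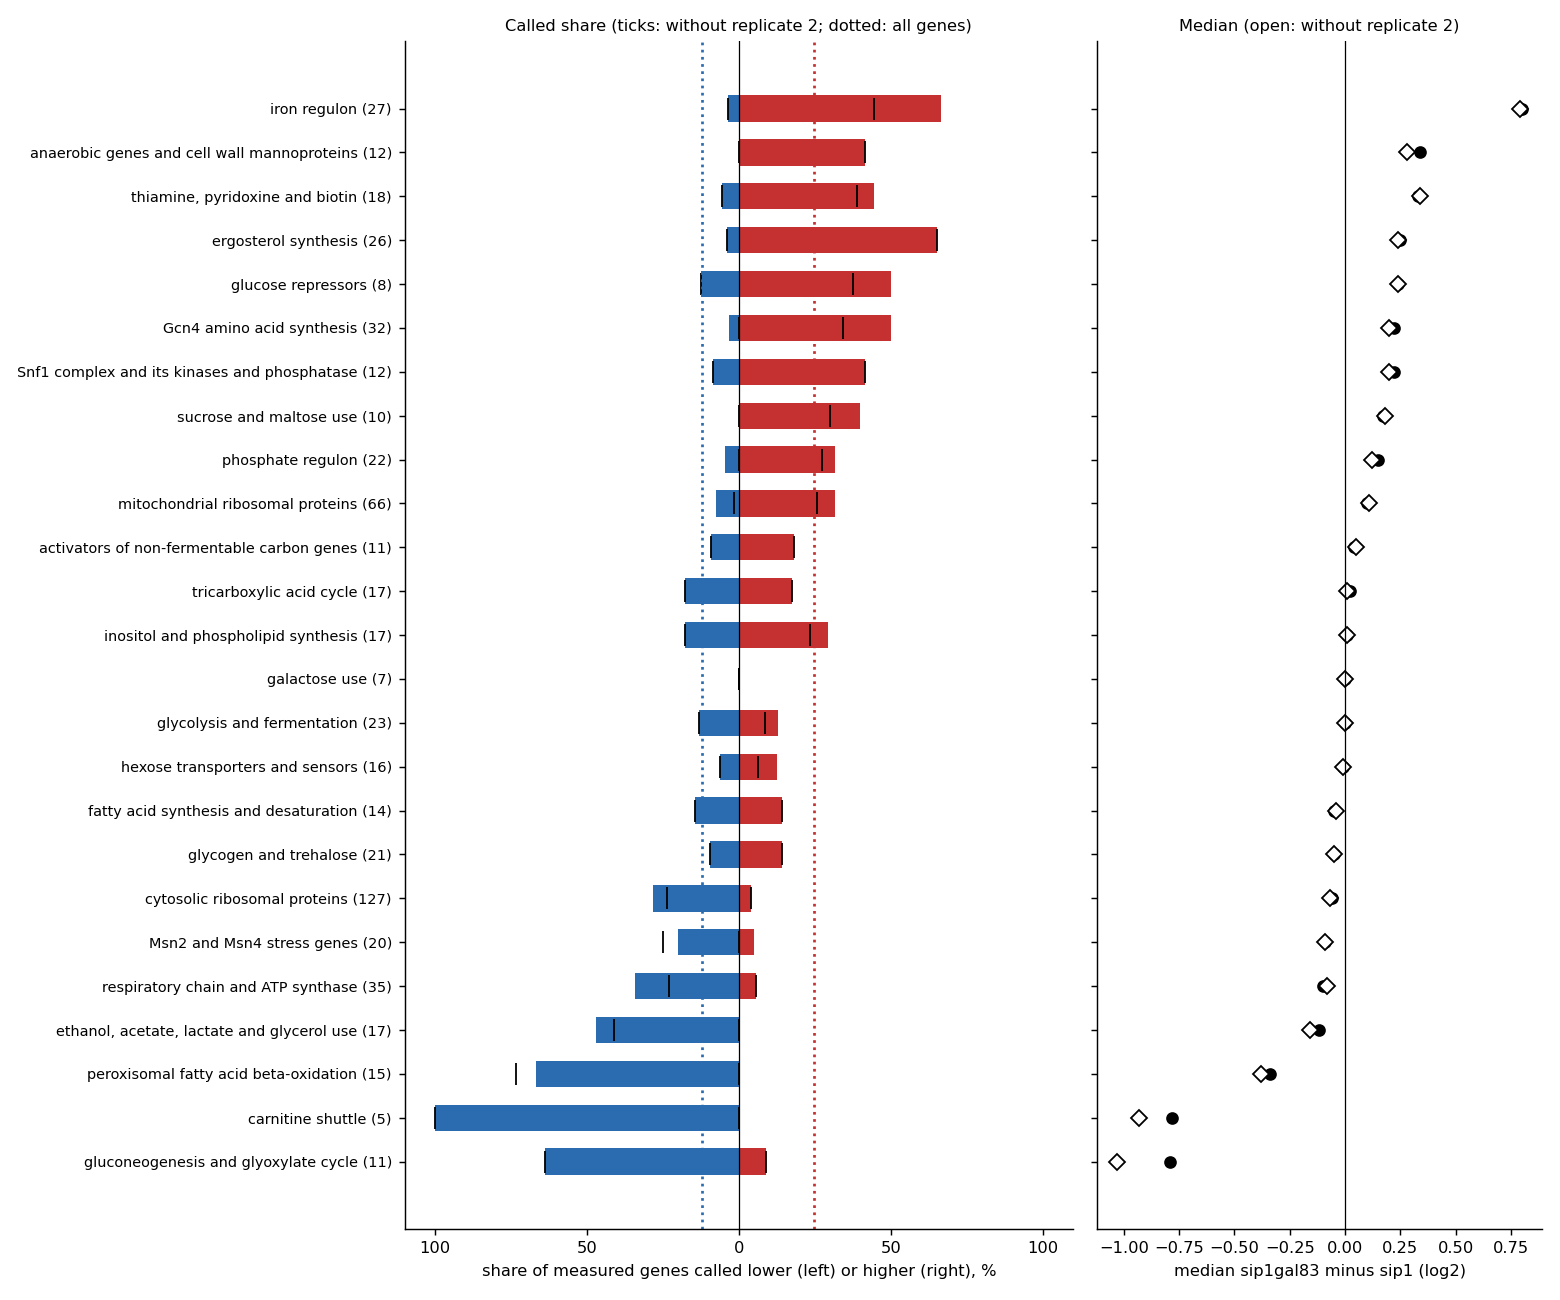
Left, percent of measured genes of each of 25 lists that fell (blue, leftward) or rose (red, rightward) in sip1gal83 against sip1; ticks, the same without the array labelled sip1gal83 replicate 2; dotted lines, the share of all genes. Right, median log2 difference with all arrays (filled) and without that array (open); gluconeogenesis and carnitine genes stand at about −0.8 and iron uptake genes at 0.80.

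Iron genes were among the most raised. Yeast takes up iron through cell surface reductases, the Fet3-Ftr1 oxidase and permease, and siderophore transporters, and the activators Aft1 and Aft2 control these genes. Of 27 measured, 18 rose and 1 fell, with a median of 0.80. Without the array labelled sip1gal83 replicate 2, 12 rose and 1 fell with nearly the same median, 0.79, and without the 3 arrays that stood apart, 11 rose and 2 fell. FIT2, a cell wall protein that retains siderophore iron, read 10.98, 10.07 and 9.68 in sip1, and 13.89, 13.34 and 11.68 in sip1gal83. SIT1, a siderophore transporter, read 8.62, 7.51 and 7.39, and then 11.39, 11.06 and 8.90. FTR1, the iron permease, read 12.42, 12.40 and 12.20, and then 13.83, 13.51 and 13.12. All sip1gal83 arrays lay above all sip1 arrays in the 3 genes, and replicate 3 was the lowest of its strain in each.

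FIT2 rose by 2.73 ± 0.76 (adjusted p = 0.00903), FTR1 by 1.15 ± 0.23 (adjusted p = 0.000958) and SIT1 by 2.61 ± 0.85 (adjusted p = 0.023). Without the array labelled sip1gal83 replicate 2, FIT2 and FTR1 had adjusted p-values of 0.0341 and 0.00415, and SIT1 went to 0.0809. FIT2 lost its call without sip1gal83 replicate 1. FET3, the multicopper oxidase, rose by 1.75 ± 0.62, ARN1, a siderophore transporter, by 1.42 ± 0.46, and TIS11, an mRNA-binding protein that lowers iron-using transcripts, by 2.60 ± 0.85. These 3 also lost their calls without that array, as they did without sip1gal83 replicate 1, sip1 replicate 2 or sip1 replicate 3. AFT1 itself read 9.66, 9.74 and 9.46 in sip1 and 10.67, 10.52 and 10.15 in sip1gal83, and rose by 0.83 ± 0.23 (adjusted p = 0.00977). AFT2 rose by 0.65. FRE4, a ferric reductase, was the exception: it read 8.45, 9.35 and 8.44 in sip1 and 2.84, 4.15 and 4.29 in sip1gal83, close to the lower end of the scale, and fell by 4.99 ± 0.99 (adjusted p = 0.000894).

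In ergosterol synthesis, the pathway of the main yeast sterol, 17 of 26 genes rose and 1 fell, with a median of 0.25. The same counts were obtained without the array labelled sip1gal83 replicate 2, and 12 rose after median centring. The largest rises lay in late steps and in an activator. ERG27, the 3-keto sterol reductase, read 12.86, 13.07 and 12.83 in sip1, and 13.55, 13.41 and 13.58 in sip1gal83. ERG26, the C-3 sterol dehydrogenase of the same step, read 13.20, 13.54 and 13.38, and then 13.98, 13.97 and 14.02. The groups did not overlap in either gene. ERG27 rose by 0.59 ± 0.0564 (adjusted p = 1.83e-06), ERG26 by 0.62 ± 0.10 (adjusted p = 0.000182) and NCP1, the reductase that feeds electrons to the pathway's P450 enzymes, by 0.58 ± 0.0922. UPC2, an activator of the pathway and of anaerobic genes, rose by 0.61 ± 0.17 (adjusted p = 0.00957), from 10.36, 10.52 and 10.66 to 11.07, 11.01 and 11.27.

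The early, rate-controlling steps moved less. HMG1, the main HMG-CoA reductase, rose by 0.21 (adjusted p = 0.0116), a call lost after median centring and without sip1 replicate 1, and HMG2 differed by 0.26 (adjusted p = 0.0733). ERG11, the lanosterol demethylase, differed by 0.08 (adjusted p = 0.166). IDI1, isopentenyl diphosphate isomerase, was the 1 gene that fell, by 0.20 ± 0.0489, from 13.11, 13.16 and 13.20 to 12.95, 12.99 and 12.93. Fatty acid synthesis, with 2 of 14 genes higher and 2 lower, and inositol and phospholipid genes, with 5 of 17 higher and 3 lower, had medians of −0.05 and 0.01. Of the inositol and phospholipid genes 4 were higher without the array labelled sip1gal83 replicate 2. Over all genes 24.8% rose and 12.2% fell, so the counts of these 2 lists do not set them apart. OLE1, the fatty acid desaturase, differed by −0.05.

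**Figure D4:**
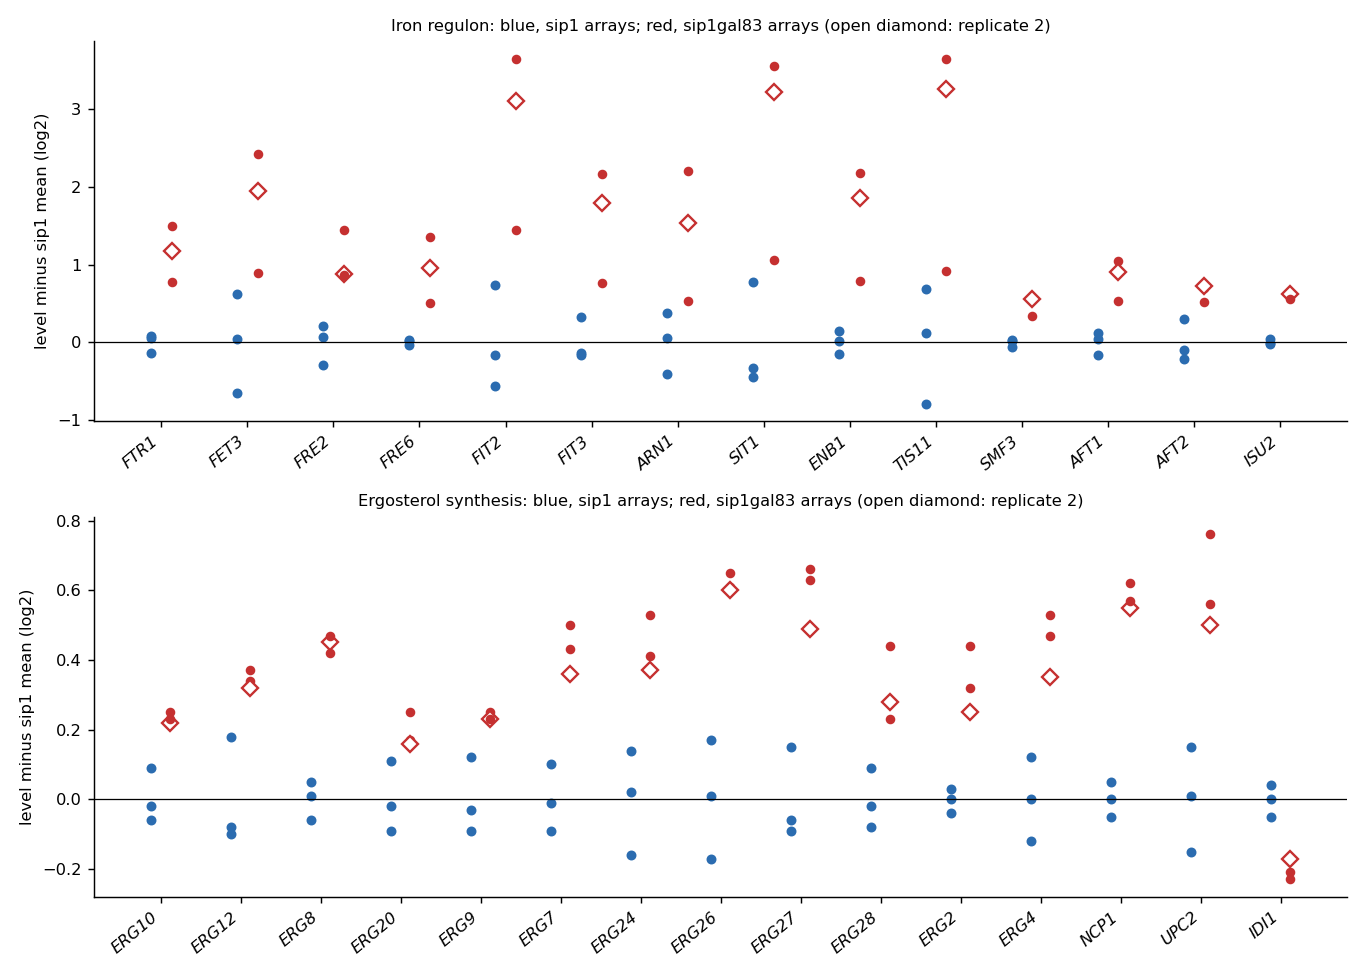
Each sip1 and sip1gal83 array minus the mean of the 3 sip1 arrays (log2) for 14 iron genes and 15 ergosterol genes; the open diamond is the array labelled sip1gal83 replicate 2. The iron genes differ more but spread widely among the sip1gal83 arrays, with replicate 3 lowest in most, while the ergosterol differences are smaller and tighter.

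The list of anaerobic genes and cell wall mannoproteins had 5 of 12 measured members higher and the other 7 not called, with a median of 0.34. After median centring 5 were higher and 2 lower. TIR1 read 8.68, 10.07 and 9.91 in sip1, and 10.78, 11.49 and 11.21 in sip1gal83, and rose by 1.60 ± 0.33 (adjusted p = 0.00106). CWP1 read 11.05, 10.92 and 11.34, and then 12.06, 12.17 and 12.28, and rose by 1.07 ± 0.11 (adjusted p = 4.21e-06). DAN1 rose by 1.01 ± 0.27 and TIR3 by 0.95 ± 0.19. In each of these genes the lowest sip1gal83 array stood above the highest sip1 array. HEM13, a haem synthesis gene that is raised when oxygen is low, rose by 0.35. AAC3 and ANB1, both textbook anaerobic genes, lay near 2.2 in both strains and were not called.

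Of 32 genes of amino acid synthesis that Gcn4 controls, 16 rose and 1 fell, with a median of 0.22, and 11 rose without the array labelled sip1gal83 replicate 2. The largest rises were in the aromatic branch. TRP3, of tryptophan synthesis, read 11.47, 11.69 and 11.68 in sip1 and 12.28, 12.34 and 12.28 in sip1gal83, and rose by 0.69 ± 0.11 (adjusted p = 0.000152). ARO2, chorismate synthase, read 12.53, 12.67 and 12.71, and then 13.26, 13.23 and 13.44, and rose by 0.67 ± 0.0932. LEU9, of leucine synthesis, rose by 0.48 and HIS7, of histidine synthesis, by 0.46, while LYS9, of lysine synthesis, fell by 0.27. The LYS9 call was lost without the array labelled sip1gal83 replicate 2, and the LEU9 call without replicate 3.

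Vitamin genes had 8 of 18 members higher and 1 lower, with a median of 0.33, and 7 were higher without the array labelled sip1gal83 replicate 2. The biotin genes split: VHT1, the biotin transporter, rose by 0.70 ± 0.15, from 11.47, 11.36 and 11.57 to 12.30, 12.15 and 12.05, while BIO2, biotin synthase, fell by 0.52 ± 0.11, from 12.25, 12.21 and 12.08 to 11.58, 11.61 and 11.78. Phosphate genes had 7 of 22 higher and 1 lower, with 3 higher and 1 lower after median centring and 6 higher without that array. The share higher was close to that over all genes, 24.8%. PHO4, the activator of phosphate starvation genes, read 10.19, 10.53 and 10.28 in sip1 and 11.44, 11.42 and 11.22 in sip1gal83, and rose by 1.03 ± 0.16 (adjusted p = 0.000108). PHO84, the high-affinity phosphate transporter, read 7.10, 6.25 and 8.76, and then 8.54, 10.23 and 9.55. Its arrays overlapped, and its rise of 2.07 ± 0.69 (adjusted p = 0.0262) was not called without the array labelled sip1gal83 replicate 2 (adjusted p = 0.11). PHO5, at the lower end of the scale on 5 of the 6 arrays, was not called.

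Of 127 genes for proteins of the cytosolic ribosome, 36 fell and 5 rose, with a median of −0.06. This count moved with scaling: 73 fell and 2 rose after median centring, and 31 fell and 15 rose after quantile normalization. Leaving out the array labelled sip1gal83 replicate 2, 30 fell and 5 rose. RPL39 read 14.80, 14.89 and 14.79 in sip1 and 14.18, 14.31 and 14.36 in sip1gal83, and fell by 0.55 ± 0.11 (adjusted p = 0.000965). Of 66 for the mitochondrial ribosome, 21 rose, a share close to that over all genes, and 5 fell, with a median of 0.10. After median centring 12 rose and 8 fell. Without that array 17 rose and 1 fell. MRPL4, of the large mitochondrial subunit, rose by 0.78 ± 0.11, from 11.12, 11.41 and 11.20 to 12.02, 12.13 and 11.90. Targets of the stress activators Msn2 and Msn4 had 1 of 20 higher and 4 lower, with a median of −0.09, and 5 lower without that array.

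Most of the largest rises, among genes with both strain means of at least 6, lay outside these lists. YSR3, a phosphatase of sphingolipid long-chain bases, read 7.34, 8.41 and 7.99 in sip1, and 10.59, 10.29 and 10.62 in sip1gal83. ATF2, an alcohol acetyltransferase that also acetylates sterols, read 9.25, 10.25 and 9.92, and then 12.06, 11.95 and 12.20. ATG15, a vacuolar lipase that breaks down autophagic bodies, read 4.77, 6.85 and 6.49, and then 9.30, 9.34 and 8.16. All 3 had every sip1gal83 array above every sip1 array, which the rule for naming the largest differences required. YSR3 rose by 2.59 ± 0.28 (adjusted p = 4.33e-06), ATF2 by 2.26 ± 0.35 (adjusted p = 9.99e-05) and ATG15 by 2.90 ± 0.73 (adjusted p = 0.00496). Others were NSL1, a kinetochore subunit, higher by 2.25 ± 0.30, WHI5, a repressor of the start of the cell cycle, by 2.25 ± 0.34, PET122, a mitochondrial translation activator, by 2.13 ± 0.37, and EFM3, a lysine methyltransferase, by 1.87 ± 0.21.

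Among the largest falls outside the carbon genes, GLO4, a mitochondrial glyoxalase II, read 11.26, 10.96 and 11.11 in sip1 and 9.17, 9.87 and 9.15 in sip1gal83, and fell by 1.72 ± 0.33. AGP3, an amino acid permease, read 10.30, 9.98 and 9.58, and then 8.09, 8.79 and 7.30, and fell by 1.89 ± 0.46. In both the array labelled replicate 2 was the highest of its strain. PCA1, a cadmium-exporting ATPase, read 12.28, 12.20 and 12.35, and then 10.84, 11.23 and 11.00, and fell by 1.25 ± 0.12 (adjusted p = 2.33e-06). IFH1, a coactivator of ribosomal protein genes, read 10.18, 10.60 and 9.92, and then 9.03, 8.83 and 9.03, and fell by 1.27 ± 0.16 (adjusted p = 1.4e-05). Closer to the lower end of the scale, NBL1, a subunit of the chromosomal passenger complex, rose by 3.09 ± 0.32, BSC5 by 3.43 ± 0.81 and ENT4, a member of the epsin family, by 2.79 ± 0.43, and PUF3, which binds mRNAs of mitochondrial proteins, fell by 2.23 ± 0.41.

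Several of these genes stood in sip1gal83 near their level in the reference, with sip1 apart. The mean levels of WHI5 were 10.33 in the reference, 8.37 in gal83, 7.52 in sip1 and 9.77 in sip1gal83. Those of EFM3 were 10.31, 9.03, 8.50 and 10.37, and those of FIT2 were 13.00, 11.72, 10.24 and 12.97. PHO4 and STD1 showed the same order, with the reference and sip1gal83 high and both single deletion strains low: 11.62, 10.38, 10.33 and 11.36 for PHO4, and 8.73, 7.19, 7.67 and 8.72 for STD1. IFH1 and RPL39 showed it upside down, at 9.0, 10.15, 10.23 and 8.96, and at 14.07, 14.79, 14.83 and 14.28. Others did not follow it. ATF2 stood at 10.17, 10.47, 9.81 and 12.07, and CWP1 at 11.22, 10.97, 11.10 and 12.17, highest in sip1gal83. PCK1 stood at 11.17, 8.49, 11.70 and 9.49, low in both strains without GAL83. The comparison with the reference and the comparison with sip1gal83 share the sip1 arrays, so these levels are a description.

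The series also holds the same deletion in the reference and in sip2, which have SIP1, and in sip1sip2, which lacks it. These 4 comparisons use no array in common. In the reference background 575 genes (10.6%) rose and 1668 (30.6%) fell, 41.2% in all. In the sip2 background 1277 (23.4%) rose and 749 (13.7%) fell, 37.2% in all, and in the sip1sip2 background 766 (14.1%) rose and 982 (18%) fell, 32.1% in all. The balance turned with scaling here too: after median centring the counts higher and lower were 1263 and 997 in the reference, 961 and 1029 in sip2, and 960 and 802 in sip1sip2. After quantile normalization they were 993 and 978, 1009 and 925, and 955 and 884. With the deposited scaling but without the 3 arrays that stood apart, they were 723 and 1982, 1263 and 746, and 856 and 1223. The overlaps and correlations that follow were not repeated without those arrays. Of the 1351 genes that rose with the deletion in sip1, 886 (65.6%) fell with it in the reference, which is 53.1% of the genes that fell there, and 27 rose in both. Of the 663 that fell in sip1, 307 (46.3%) rose in the reference, 53.4% of those that rose there, and 57 fell in both. After median centring 532 genes rose in sip1 and fell in the reference, 800 did the reverse, 40 rose in both and 48 fell in both. After quantile normalization these were 514, 522, 34 and 52. Against the sip2 background, 837 genes rose in both (62% of those in sip1, 65.5% of those in sip2) and 346 fell in both (52.2% and 46.2%), with 9 and 6 in opposite directions. After median centring 597 rose in both and 582 fell in both, with 5 and 6 in opposite directions.

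Across 5449 genes the differences in sip1 had a Pearson correlation of −0.43 with those in the reference, 0.75 with those in sip2 and 0.24 with those in sip1sip2. Genes are not independent replicates, and each of these values comes from 12 arrays scaled by the authors in an unstated set, so they are descriptions. The median of the genes that rose in sip1 was 0.41 there, −0.32 in the reference, 0.31 in sip2 and 0.05 in sip1sip2. Tested gene by gene in the same fit, the effect of the deletion differed between sip1 and the reference for 2793 genes (51.3%), 1995 (36.6%) more positive in sip1 and 798 (14.6%) more negative. After median centring these were 1280 and 1606. It differed between sip1 and sip1sip2 for 1713 genes (31.4%), 1179 (21.6%) more positive and 534 (9.8%) more negative, and after centring 760 and 1150. Leaving out the array labelled sip1gal83 replicate 2 gave 2572 and 1368 genes. Between sip1 and sip2 it differed for 46 genes (0.844%), 32 (0.587%) more positive and 14 (0.257%) more negative, or 10 without the array labelled sip1gal83 replicate 2. That last count ran from 6 to 172 as single arrays were left out. Before adjustment, 990 genes had a limma p under 0.05 in that comparison. The few calls thus do not show that the 2 backgrounds respond alike.

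Most of the glyoxylate cycle and gluconeogenic genes fell in each background. In gluconeogenesis and the glyoxylate cycle 7 of 11 genes fell with the deletion in each of the reference, sip2 and sip1sip2 backgrounds, with medians of −0.79, −0.95 and −1.35. Against the reference, 1 gene of the list differed in its response and against sip2 no difference passed the test, while against sip1sip2 5 were more positive in sip1 and 1 more negative. MLS1 fell by 3.35 in the reference, by 4.29 in sip2 and by 6.40 in sip1sip2, and the difference between sip1 and sip1sip2 was 3.88 ± 0.78 (adjusted p = 0.00136). ICL1 differed by −2.50, −3.63 and −5.08, and its difference between sip1 and sip1sip2 was 2.70 ± 0.64 (adjusted p = 0.00434). Without the array labelled sip1gal83 replicate 2, close to sip1 in both genes, these differences shrank to 2.83 for MLS1 (adjusted p = 5.11e-05) and 1.80 for ICL1 (adjusted p = 2.04e-05). The response of ICL1 then also differed between sip1 and the reference, by −0.79 (adjusted p = 0.00407), as did that of SIP4, by −1.32 (adjusted p = 0.00309), neither of which was called with all arrays. Against sip1sip2, SIP4 differed in the opposite direction to MLS1 and ICL1. With all arrays it fell by 2.22 in sip2 and changed by −0.26 in sip1sip2. Its difference between sip1 and sip1sip2 was −1.59 ± 0.40 (adjusted p = 0.0059).

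For many β-oxidation genes and for ADY2, the acetate transporter gene, the effect in sip1 differed from that in the reference. The deletion lowered 4 of 15 β-oxidation genes in the reference and raised 1, with a median of −0.02. For 8 of the 15 the effect was more negative in sip1. Over all genes 30.6% fell in the reference, so the 4 of 15 do not stand out, and 14.6% were more negative in sip1. In sip2 the deletion lowered 3 of the 15, with a median of −0.09, and in sip1sip2 it lowered 7, with a median of −0.27. Over all genes 13.7% fell in sip2 and 18% in sip1sip2. CTA1 differed by 0.38 in the reference and by −1.38 in sip1, a difference of −1.77 ± 0.31 (adjusted p = 0.000138). ADY2 differed by −0.77 in the reference (adjusted p = 0.125), and the difference between the backgrounds was −1.69 ± 0.55 (adjusted p = 0.0163). In the carnitine shuttle 2 of 5 genes fell in the reference, with a median of −0.07, and 3 of 5 were more negative in sip1. In the sip2 background all 5 fell, with a median of −1.32. YAT2 fell by 2.44 in sip1sip2, more than in sip1 (difference 1.66 ± 0.14, adjusted p = 4.89e-07).

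Of the 27 iron genes, 12 fell and 1 rose with the deletion in the reference, with a median of −0.69, and 6 fell and 1 rose after quantile normalization, with a median of −0.43. With the deposited scaling 16 rose and 1 fell in sip2 and 3 fell in sip1sip2, with medians of 0.72 and −0.07. The effect was more positive in sip1 than in the reference for 22 of the 27 and more negative for 2, and more positive than in sip1sip2 for 12. Without the array labelled sip1gal83 replicate 2 these were 20, 2 and 8. FIT2 differed by 4.02 ± 1.07 between sip1 and the reference (adjusted p = 0.00453) and by −0.25 ± 1.07 between sip1 and sip2 (adjusted p = 0.937). FRE4 fell by 5.73 in sip2 as well, and differed by −0.15 in the reference. Respiratory genes ran opposite: 18 of 35 rose and 1 fell in the reference, against 12 that fell in sip1, and for 18 the effect was more negative in sip1. Cytosolic ribosomal protein genes did likewise, with 65 of 127 higher and 5 lower in the reference, and 72 more negative in sip1. After median centring 100 cytosolic ribosomal protein genes rose in the reference, and 104 were more negative in sip1. Ergosterol genes, of which 17 rose in sip1, rose in 1 of 26 cases in the reference, in 18 in sip2 and in 15 in sip1sip2, and for 13 the effect was more positive in sip1 than in the reference. This contrast depended on scaling: after median centring 13 rose and 1 fell in the reference, and the effect was more positive in sip1 for 8 and more negative for 3, with a median difference of 0.03.

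Single genes showed the contrast between backgrounds. NRG1 differed by 0.72 in the reference and by −0.90 in sip1, a difference of −1.62 ± 0.12 (adjusted p = 2.82e-08). WHI5 differed by −1.95 in the reference, 0.37 in sip2 and −1.36 in sip1sip2, and its effect in sip1 was 4.20 ± 0.48 more positive than in the reference. NSL1 differed by −2.16, 2.20 and −0.54, and EFM3 by −1.28, 1.79 and 0.08. For both, the difference between sip1 and sip2 was not called, at 0.05 ± 0.43 for NSL1 and 0.08 ± 0.29 for EFM3. HXT4 was 1 of the 46 genes called for a difference between sip1 and sip2. It differed by −0.99 in sip2 and by 0.82 in sip1, a difference of 1.81 ± 0.24 (adjusted p = 0.00127). It differed by −0.95 in the reference and 0.83 in sip1sip2, so it was higher with the deletion in both strains that lack SIP1 and lower in both that have it.

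**Figure D5:**
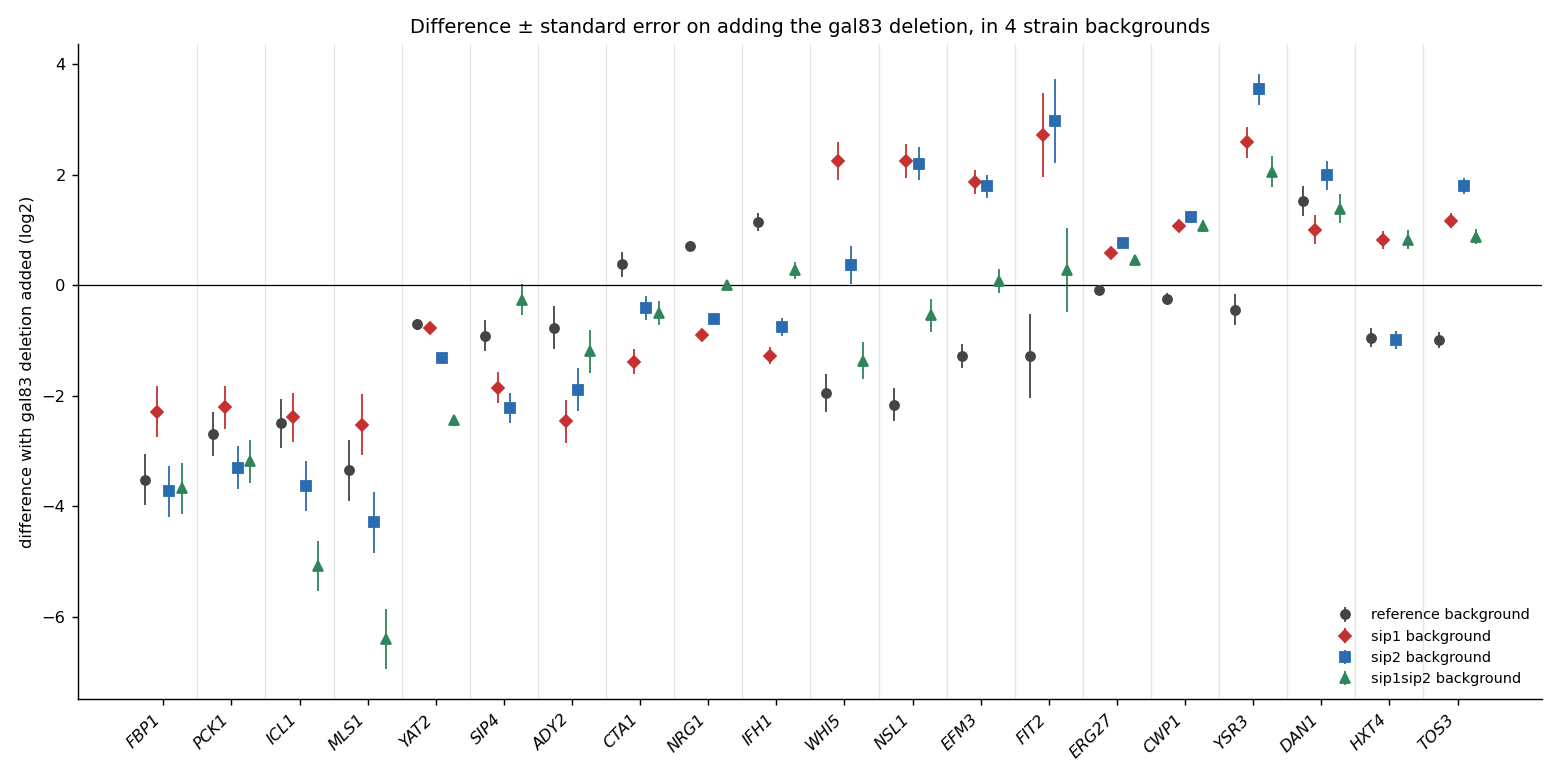
Log2 difference ± standard error with the deletion of GAL83 in the reference, sip1, sip2 and sip1sip2 backgrounds for 20 genes, each point from 3 arrays against 3. FBP1, PCK1, ICL1 and MLS1 lie below 0 in each background, while FIT2, NSL1 and EFM3 lie above 0 in sip1 and sip2 and below or near 0 in the reference and sip1sip2.

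In all 4 backgrounds 17 genes (0.312%) rose and 40 (0.734%) fell. Without the array labelled sip1gal83 replicate 2 these were 17 and 48, sharing 17 and 38 genes with the first counts. The genes that fell include GAL83 itself, ICL1, MLS1, FBP1, PCK1, SFC1, MDH2, IDP2, YAT1, YAT2 and POT1. Others were REG2, a regulatory subunit of the phosphatase that acts on Snf1, YGR067C, a zinc finger protein gene, GDH2, the glutamate dehydrogenase that breaks down glutamate, and UBC8, a ubiquitin-conjugating enzyme that takes part in degrading fructose-1,6-bisphosphatase. REG2 read 11.51, 11.24 and 11.42 in sip1 and 10.10, 10.54 and 10.16 in sip1gal83, and fell by 1.12 ± 0.18. Its differences were −1.06, −1.36 and −1.72 in the reference, sip2 and sip1sip2. GDH2 fell by 0.57 ± 0.0757 in sip1, and UBC8 fell by 0.40 ± 0.0876.

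The 17 that rose include PAU8, PAU14, PAU24, PAU9 and PAU2, of the seripauperin family, and DOG2, a 2-deoxyglucose-6-phosphate phosphatase. Each of these probe sets can bind transcripts of several alike genes, which leaves the source of the signal uncertain. DAN1, a mannoprotein of the same group, rose by 1.53 in the reference, 1.99 in sip2 and 1.39 in sip1sip2. PAU5, whose probe set is its own, rose by 0.61 in sip1 and by 1.69 in the reference, with overlapping arrays in sip1. YPS3, a cell surface aspartic protease, read 10.03, 10.19 and 10.31 in sip1 and 11.50, 11.35 and 11.78 in sip1gal83, and rose by 1.37 ± 0.22. BDH1, a butanediol dehydrogenase, rose by 0.58 ± 0.0609 (adjusted p = 3.98e-06), from 13.82, 13.75 and 13.58 to 14.30, 14.22 and 14.36.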

How the data were processed

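Total RNA from 24 chemostat cultures (8 strains, 3 biological replicates each, grouped by sample title) was hybridised to Affymetrix arrays. The deposited log2 probe-set levels come from RMA and affy, per the submitters' processing notes. Their versions and the set of arrays normalized together are not given in the sources used here. Scanner files were not used, so signal over background is unknown, and the number of arrays limits the precision.

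Of 5716 probe sets, 5498 name 1 gene, 0 several and 218 none. The 5498 identifiers matched the RefSeq gene table (assembly R64, names only), which updated 12 symbols. Of several probe sets for 1 gene, that with the highest mean stayed, which dropped 49 and left 5449 genes, 112 of them on probe sets shared between near-identical genes. Low values were not filtered, and 0 columns went unused. No 2 arrays were identical (highest correlation 0.9987).

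A linear model with strain means for all 24 arrays (limma 3.58.1 under R 4.3.3, moderated by eBayes, 16 residual degrees of freedom) gave the contrasts, with Benjamini-Hochberg adjustment within each of 7 comparisons and calls at an adjusted p under 0.05. On simulated data (5449 genes, 200 changed), sip1gal83 against sip1 recovered 64% of true log2 changes of 0.5, 92% of 1 and 100% of 2, with 16 false calls among 194. The simulated noise was normal and independent, with 1 spread per gene and no array that goes against its label. These rates therefore do not carry over to the real arrays, where 37% of genes were called.

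Named genes were the 3 β-subunit genes, the 12 or fewer largest called differences in each direction (both means at least 6) and the 4 or fewer below that, all called also without the array labelled sip1gal83 replicate 2 and with no overlap of arrays, up to 4 called members per list, up to 4 each way for each difference between backgrounds, and a fixed panel of carbon, sterol and phosphate genes. Other list members are named to describe their list. The members and lists were chosen with earlier results of these data known. RPP1, an RNase P gene caught by a name pattern, was removed from the ribosomal list after values were seen. Alternatives were median centring, quantile normalization, filters on low values, array weights and trend with robust eBayes. A replicate block, a fit to only the groups compared and leaving out arrays were the others. Genes called alike in all 4 backgrounds were counted as an addition made after the data were seen. Replicate numbers did not pair the 2 strains (correlations of same-numbered deviations 0.178, −0.038 and 0.019).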

Additional observations from a re-analysis of the deposited data

Results flagged for a closer look

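The effect of deleting GAL83 differed between backgrounds by a test of the difference itself, and these results are listed for that reason. It differed between sip1 and the reference for 2793 genes, between sip1 and sip1sip2 for 1713 and between sip1 and sip2 for 46. Values are the effect in sip1 minus the effect in the other background (log2, limma fit to all 24 arrays, adjusted p under 0.05).

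Against the reference, ATG15, a vacuolar lipase, differed by 5.12, SIT1, a siderophore transporter, by 4.83 and PHO84, a phosphate transporter, by 4.70. YEL076C-A, on a probe set shared between near-identical genes, differed by 5.50. YAP6, a bZIP transcription factor, differed by −2.84. The other negative ones were YAR009C, a Ty1 element gene on a shared probe set, at −3.63, and the short reading frames YLR264C-A at −3.40 and YLR285C-A at −2.96. For SIT1 and PHO84 the sip1gal83 difference itself lost its call without the array labelled sip1gal83 replicate 2.

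Against sip2, AQY2, an aquaporin gene, differed by 1.87, HXT4 by 1.81, YLL053C by 1.08, MEP2, an ammonium permease, by 1.03, and SET2, a histone methyltransferase, by −0.54.

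Against sip1sip2, ATG15 differed by 4.57, YEL076C-A by 4.14, MLS1, the malate synthase, by 3.88 and WHI5, a cell cycle repressor, by 3.61. Of the negative ones, 3 are known for roles in meiosis and sporulation: DMC1, the meiotic recombinase, at −2.96, CSM4 at −2.65 and MPC54, of the spindle pole body in meiosis, at −2.26. UGA4, the GABA permease, differed by −2.43. The meiotic markers moved in the other background: their summed log2 level ran from 46.92 to 49.45 in sip1sip2 and from 55.92 to 65.86 in sip1sip2gal83, where 5 of 10 rose and 1 fell. Of the 4 MATα markers 3 rose there, with sums of 51.35 to 52.62 and 54.53 to 54.87. The part of these markers in the differences was not tested.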

How the results depend on the processing

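The 2014 genes called in sip1gal83 against sip1 became 1693 without the array labelled sip1gal83 replicate 2, 2624 with array weights, 1960 with the compared groups alone, 2019 with trend and robust eBayes, and between 1556 and 1760 as single arrays of the strains were left out. A replicate block gave 2018, and the numbers do not pair the samples. Scaling moved the share of calls that are higher from 67.1% to 44.4% (median centring), so the direction of small differences depends on it. Leaving out single arrays gave 2517 to 2674 differences against the reference background and 1361 to 1708 against sip1sip2.

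The 46 differences against the sip2 background were the least stable count. They became 325 with array weights, 1 with the compared groups alone, 29 with median centring, 29 with values raised to the 25% point (9.746), 28 without the 3 arrays that stood apart, and between 6 and 172 as single arrays were left out. Of these, 172 came without sip2gal83 replicate 2, 10 without sip1gal83 replicate 2, 14 and 23 without sip1 replicates 1 and 3, and 6 and 8 without sip2 replicates 1 and 2. The 2026 genes called in sip2gal83 against sip2 became 707 with those groups alone, and the 1748 in sip1sip2gal83 against sip1sip2 became 2658 with array weights. The 57 genes called alike in 4 backgrounds became 91 with array weights, 24 with the compared groups alone, 87 without the 3 arrays that stood apart, and 40 to 72 as single arrays were left out. The cause of these shifts was not tested.

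Over the named genes and all alternatives, 2541 values kept their side of the threshold, 225 lost the call and 17 gained it. Of the values called in either fit, 0 reversed direction. Values called in neither fit could change sign and still count among the 2541. Of the list counts, 369 stayed within 1.5 times and 66 did not. Differences against a value near 2 depend on that floor of the scale.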

Other observations

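YIR042C, a gene with no standard name and in no list, rose in sip1gal83 by more than any gene named in the report, and was picked after its values were seen. It read 4.11, 3.85 and 3.84 in sip1, and 8.88, 8.75 and 8.04 in sip1gal83. Its difference was 4.62 ± 0.23 (limma, adjusted p = 1.12e-09), and 4.53 without the array labelled sip1gal83 replicate 2. The mean was 8.83 in the reference and 7.85 in gal83, so sip1 stood apart from the other strains of this set of 4. The deletion of GAL83 differed by −0.98 in the reference, 0.43 in sip2 and −0.45 in sip1sip2.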
